A study of Mus musculus with 6 samples.

Results

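The 34 genes described here act in the G2 phase of the cell cycle and in mitosis. They were chosen by name as the rows of the deposited table whose gene symbol was on the list, and all 34 were found among the 23420 genes listed. RNA came from whole lungs of mouse embryos at E11.5 (days post coitus, dpc), as 3 control pools, whose genotype the labels give as *Rptor* f/+; *Shh* Cre/+, and 3 mutant pools, with the genotype *Rptor* f/f; *Shh* Cre/+. Each pool combined 3 or 4 lungs. *Rptor* encodes Raptor, the scaffold subunit of the kinase complex mTORC1, which couples growth to nutrients. Cre was expressed from the *Shh* locus, which is active broadly in the lung epithelium, so that mesenchyme, vessels and blood kept *Rptor* in both groups. By the labels, controls carried Cre and 1 floxed allele as well, and both groups had only 1 intact allele of *Shh*. A supplement of the study writes the E11.5 controls as *Shh* Cre/+ without naming a floxed allele, so whether controls were heterozygous for *Rptor* in the epithelium is taken here from the labels alone. The comparison asked whether the transcripts for cell division differed between the lungs at the stage when branching begins.

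In dividing cells, cyclin B and CDK1 drive entry into mitosis, Polo-like and Aurora kinases build the spindle, and kinetochore proteins attach chromosomes to it. The spindle checkpoint holds back the anaphase-promoting complex until every chromosome is attached, after which kinesins and cytokinesis proteins separate the daughter cells. Transcription of these genes is low in G1 and peaks in G2, and much of this rhythm is known to run through the DREAM and MuvB complexes, the factors B-MYB and FOXM1, and promoter elements named CHR and CCAAT. The embryonic lung grows fast at this stage in both epithelium and mesenchyme, so these transcripts come from many cell types at once.

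The promoters of the genes were read first, because the 2 elements named above are a feature that the choice of genes did not use. RefSeq promoters (GRCm38.p6, 250 bases before to 50 bases after the start) were found for 29 of the 34 genes, with 31 promoters in all. Those of *Cdk1*, *Ccnb1*, *Ccnb2* and *Plk1* are shown for the 120 bases before the start, 5′ to 3′ along the gene, with TTTGAA (the CHR core) and CCAAT (the site bound by NF-Y) in capitals in either orientation, so that a reversed CCAAT reads ATTGG. They lie at chr10:69352913-69353032 (minus strand) for *Cdk1*, chr13:100786487-100786606 (minus strand) for *Ccnb1*, chr9:70421555-70421674 (minus strand) for *Ccnb2* and chr7:122159315-122159434 (plus strand) for *Plk1*. The GENCODE gene starts upstream of the RefSeq start in *Cdk1* and *Ccnb1*, so part of those windows lies inside the GENCODE gene.
Cdk1: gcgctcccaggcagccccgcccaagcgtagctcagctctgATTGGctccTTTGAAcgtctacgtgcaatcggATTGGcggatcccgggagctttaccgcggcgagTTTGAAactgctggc
Ccnb1: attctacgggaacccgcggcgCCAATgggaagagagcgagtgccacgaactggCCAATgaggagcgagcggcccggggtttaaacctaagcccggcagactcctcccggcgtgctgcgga
Ccnb2: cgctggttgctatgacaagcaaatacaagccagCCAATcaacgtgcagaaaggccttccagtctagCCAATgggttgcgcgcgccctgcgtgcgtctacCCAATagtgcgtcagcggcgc
Plk1: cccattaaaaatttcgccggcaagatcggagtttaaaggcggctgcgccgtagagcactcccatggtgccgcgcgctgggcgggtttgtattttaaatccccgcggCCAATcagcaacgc
Both elements stood side by side before the start of *Cdk1*, whereas the windows printed for the cyclins and *Plk1* held CCAAT alone. In *Ccnb2* and *Plk1* a TTTGAA lay just after the start, at positions 5 and 31 counted from it (a further one in *Ccnb2* was at -167), and *Ccnb1* had none in its 300 bases. Across the 31 promoters, TTTGAA on either strand was found in 24 (77.4%), against 17.9% of all 32851 promoters of the same length. CCAAT on either strand was found in 23 (74.2%), against 37.4% of all promoters, and both together in 20 (64.5%), against 6.95%. The 32 matches to TTTGAA lay between positions -179 and 41, and 24 of them were within 50 bases of the start, in 20 genes. The E2F motif, searched as TTTCCCGC or TTTGGCGC on both strands, was in 0 of the 31, against 1.56% of all promoters. No searched motif contains another. In 119 promoters of further G2/M and mitosis genes, for comparison, TTTGAA was in 40.3%, CCAAT in 61.3% and the E2F motif in 10.1%. In 55 promoters of DNA replication and G1/S genes the shares were 20%, 60% and 29.1%, so CCAAT was common in all of these lists. A match describes the letters only.

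The targeted gene was looked at first. *Rptor* was at 2126, 2193 and 2279 in control and 2023, 2137 and 2148 in mutant pools (log2 fold change -0.06, limma adjusted p = 0.584), counted over the whole gene and from all cell types, so that it is no check of the deletion in the epithelium. *Xist*, which is transcribed in female cells, was at 4599, 309 and 12989 in control and 41.9, 466 and 161 in mutant pools. It was low in every mutant pool and in control pool 2 and highest in control pool 3, so the sex mix differed between pools. Sex and genotype therefore cannot be fully told apart here, and the part of sex was not tested. Control pool 3 stood apart from the other controls in *Xist*, in some cell type markers and in a way that went with gene length. Results that rest on it are given with and without it.

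All 34 genes were well expressed in both groups. Values are normalized counts, each gene's reads scaled by the library's size factor, and the libraries held 20197642 to 21276090 reads. The mean over the 6 pools was above the median of all tested genes for each of the 34, and its median over them was 2726 against 389 for all tested genes. The lowest number of reads for any of the genes in any pool was 727, at which counting alone gives a coefficient of variation of 3.71%. Per kilobase of summed exon length, the level in control lungs ran from 116 for *Ndc80*, a microtubule-binding kinetochore subunit, to 1974 for *Cdc20*, an activator of the anaphase-promoting complex. *Ube2c* at 1955 and *Plk1* at 1623 per kilobase followed *Cdc20*. Together the 34 genes took 0.599%, 0.604% and 0.588% of the normalized counts of the control pools and 0.569%, 0.578% and 0.566% of those of the mutant pools. Every mutant pool thus gave a smaller share than every control pool, by a narrow margin.

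No G2/M or mitosis gene passed the test between mutant and control lungs. Of the 34 genes, 0 had an adjusted p under 0.05 with limma, where 86 of all 17168 tested genes (0.501%) did, and edgeR and DESeq2 on the reads recovered from the values also called 0 of the 34. The lowest adjusted p was 0.144. Differences were small, with 95% intervals of every gene lying between -0.27 and 0.18 on the log2 scale, and 25 of the 34 intervals included 0. The estimates themselves were mostly below 0. The log2 fold change was negative in 28 genes (82.4%, against 50.5% of all tested genes) and positive in 6. Its median was -0.05 against -0.0021 over all tested genes, and its range was from -0.16 to 0.05. At an unadjusted p under 0.05, 9 of the 34 (26.5%) were lower in the mutant, against 6.89% of all tested genes, and 0 were higher, against 6.67%. The 3 mutant pools all lay below the 3 control pools in 10 of the 34 (29.4%), against 10.5% of all tested genes, and all lay above them in 0, against 9.77%. The members of such a list are switched on together in the same dividing cells, so that their counts are not independent of one another. P-values measure only the spread between these pools of embryos.

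**Figure D1:**
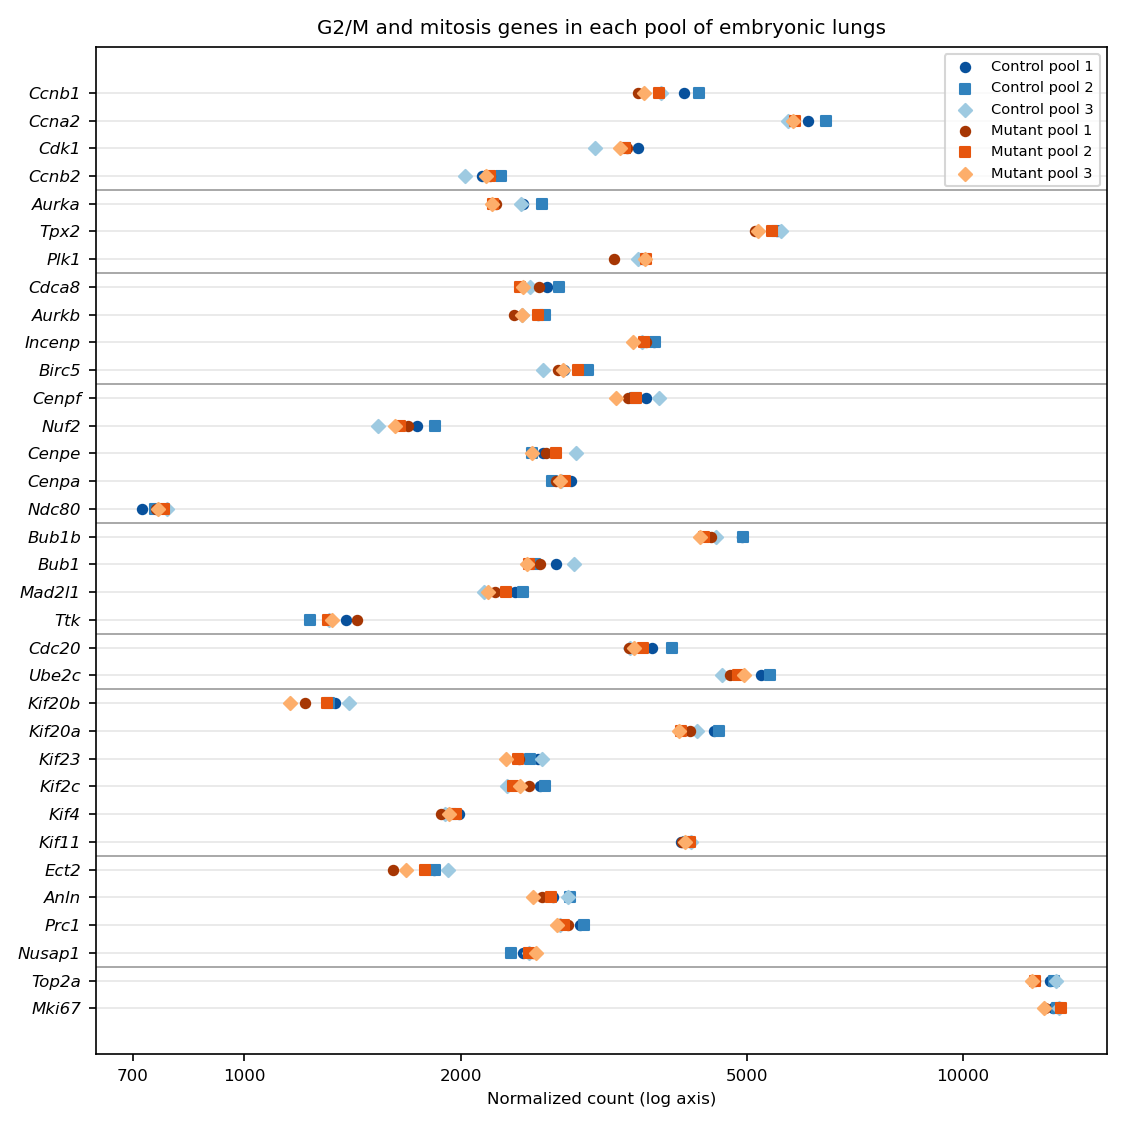
Normalized count (log axis) of each of the 34 genes in the 3 control pools (blue) and the 3 mutant pools (orange), ordered by role with grey lines between roles. The pools of a gene lie close together, and in *Aurka*, *Ccnb1*, *Bub1b* and *Top2a* the 3 mutant pools stand to the left of the 3 control pools.

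Cyclins and their kinase gave mixed values. *Ccnb1* encodes cyclin B1, the partner of CDK1 at mitotic entry, and lies at chromosome 13, 100778650 to 100786570 (minus strand, GRCm38). Its normalized counts were 4088, 4286 and 3798 in control against 3530, 3772 and 3599 in mutant pools. The groups did not overlap, although the lowest control and the highest mutant pool nearly met. *Ccnb1* was 4057 ± 246 in control and 3634 ± 124 in mutant lungs (SD, n = 3 each), 10.4% lower, with a log2 fold change of -0.16 (SE 0.05, limma adjusted p = 0.205). *Cdk1*, on chromosome 10 from 69335146 to 69352938, was at 3528, 3382 and 3078 in control and at 3411, 3386 and 3336 in mutant pools. Its groups overlapped, and its log2 fold change was 0.02 (SE 0.05, 95% interval -0.09 to 0.14). *Ccnb2*, the second B-type cyclin, stood at 0.03 (SE 0.05) and *Ccna2*, the A-type cyclin of S phase and G2, at -0.06 (SE 0.05). All 4 of these genes varied more between control pools than between mutant pools (SD), as did 10699 of all 17168 tested genes.

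*Aurka*, on chromosome 2 from 172356190 to 172370535, encodes Aurora A, the kinase that matures centrosomes and spindle poles, and had the lowest p of the 34. It was at 2446, 2592 and 2424 in control and at 2238, 2216 and 2215 in mutant pools. The mutant pools were almost level and all below the controls, and the means were 2487 ± 91.3 and 2223 ± 12.7 (10.6% lower, log2 fold change -0.16, SE 0.04, limma adjusted p = 0.144). *Tpx2*, the activator that brings Aurora A to the spindle, was at 5503, 5511 and 5583 in control and 5139, 5425 and 5190 in mutant pools. These did not overlap either, yet the interval of the difference included 0 (log2 fold change -0.08, 95% interval -0.16 to 0.0084). *Plk1*, on chromosome 7 from 122159439 to 122169873, is the Polo-like kinase that promotes entry into mitosis. Its values were 3583, 3598 and 3526 in control and 3273, 3621 and 3611 in mutant pools, so that 1 mutant pool was low and the other two were at or above the controls (log2 fold change -0.03, SE 0.05).

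The chromosomal passenger complex, which corrects faulty attachments and guides cytokinesis, gave no gene at an unadjusted p under 0.05. *Aurkb*, its kinase Aurora B, was at 2565, 2618 and 2437 in control and 2375, 2566 and 2432 in mutant pools (log2 fold change -0.05, SE 0.05). *Birc5*, which encodes survivin, was at 2789, 3008 and 2602 in control and 2728, 2917 and 2776 in mutant pools (log2 fold change 0.0057, 95% interval -0.12 to 0.13). The groups overlapped in both. The remaining subunits, the scaffold *Incenp* and borealin (*Cdca8*), had log2 fold changes of -0.04 and -0.08.

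Among kinetochore and centromere genes, 4 of 5 were lower, against 50.5% of all tested genes, and 0 reached an unadjusted p under 0.05. *Cenpf*, a large coiled-coil protein of the outer kinetochore, was at 3626, 3499 and 3781 in control and 3416, 3506 and 3293 in mutant pools. A single mutant pool reached into the control range (log2 fold change -0.09, SE 0.04, limma adjusted p = 0.39). *Cenpa*, the histone H3 variant that marks centromeres, stood at -0.0038, the motor *Cenpe* at -0.03, and the *Ndc80* complex subunits *Nuf2* and *Ndc80* at -0.04 and 0.02.

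*Bub1b* encodes BubR1, a checkpoint protein that inhibits the anaphase-promoting complex. It was at 4922, 4934 and 4536 in control and 4454, 4364 and 4310 in mutant pools. The mutant pools lay below all controls, with means of 4797 ± 226 and 4376 ± 72.7 (8.79% lower, log2 fold change -0.13, SE 0.04, limma adjusted p = 0.218). *Bub1*, the checkpoint kinase that recruits it, was at 2712, 2541 and 2879 in control and 2578, 2491 and 2477 in mutant pools. These overlapped (log2 fold change -0.11, SE 0.05, limma adjusted p = 0.399). *Mad2l1*, which binds and inhibits CDC20, stood at -0.05 and *Ttk*, the checkpoint kinase MPS1, at 0.05. *Cdc20* itself, an activator of the anaphase-promoting complex, was at 3689, 3930 and 3442 in control and 3432, 3583 and 3489 in mutant pools, which overlapped (log2 fold change -0.07, 95% interval -0.19 to 0.04). The ubiquitin-conjugating enzyme of that complex, *Ube2c*, had a log2 fold change of -0.06 (SE 0.06).

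The mitotic kinesins were lower in 6 of 6, where 50.5% of all tested genes were lower. At an unadjusted p under 0.05, 3 of them were lower (against 6.89% of all tested genes). *Kif20a*, a kinesin of the central spindle, was at 4499, 4572 and 4261 in control and 4171, 4057 and 4020 in mutant pools. The groups did not overlap (8.13% lower, log2 fold change -0.12, SE 0.04, limma adjusted p = 0.228). *Kif23*, the motor subunit of centralspindlin, was at 2559, 2501 and 2598 in control and 2413, 2406 and 2316 in mutant pools, again without overlap (log2 fold change -0.10, SE 0.04, adjusted p = 0.31). *Kif20b*, a related kinesin of late cytokinesis, was at 1337, 1313 and 1397 in control and 1214, 1303 and 1160 in mutant pools. Here the highest mutant pool came within a few counts of the lowest control (log2 fold change -0.14, SE 0.06, adjusted p = 0.31). *Kif2c*, a microtubule depolymerase, *Kif4*, a chromosome-bound kinesin on the X chromosome, and *Kif11*, the motor that pushes spindle poles apart, had log2 fold changes of -0.05, -0.02 and -0.0031. Their intervals included 0, and the sign of *Kif4* and of *Kif11* changed with some pools left out.

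Of the genes for the spindle midzone and cytokinesis, *Ect2* and *Anln* were lower at an unadjusted p under 0.05. *Ect2*, the exchange factor that activates RhoA at the cleavage furrow, was at 1839, 1842 and 1924 in control and 1611, 1782 and 1679 in mutant pools (9.51% lower, log2 fold change -0.14, SE 0.05, limma adjusted p = 0.237). *Anln*, the furrow scaffold anillin, was at 2692, 2842 and 2821 in control and 2598, 2676 and 2526 in mutant pools (log2 fold change -0.10, SE 0.04, limma adjusted p = 0.352). Neither gene overlapped between groups. The microtubule bundlers *Prc1* and *Nusap1* went opposite ways in their estimates, at -0.06 and 0.05, and both intervals included 0.

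*Top2a* and *Mki67* were the most abundant of the 34 in counts. *Top2a*, on chromosome 11 from 98992943 to 99024189, encodes the topoisomerase that untangles sister chromosomes. It was at 13204, 13383 and 13468 in control and 12582, 12596 and 12460 in mutant pools. The groups stood well apart relative to their spread, with means of 13352 ± 135 and 12546 ± 74.5 (6.03% lower, log2 fold change -0.09, SE 0.03, limma adjusted p = 0.273). *Mki67*, on chromosome 7 from 135689784 to 135716361, encodes Ki-67, the usual marker of cycling cells, and was at 13327, 13516 and 13582 in control and 13008, 13682 and 12968 in mutant pools. The second mutant pool was the highest of all, and the difference was -0.03 (SE 0.04, 95% interval -0.11 to 0.05).

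**Figure D2:**
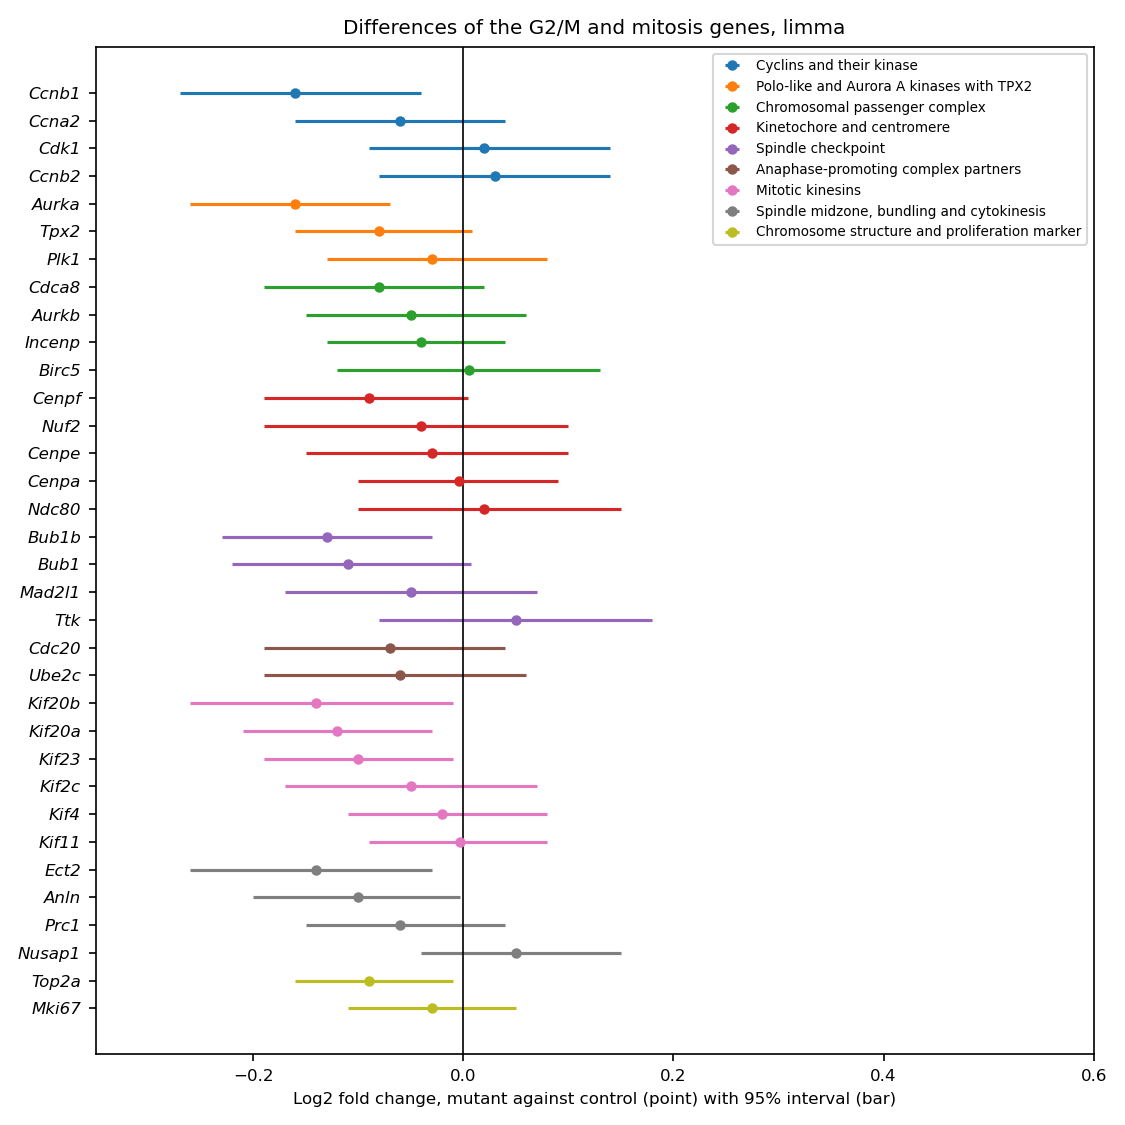
Log2 fold change of mutant against control lungs (point) with its 95% interval (bar) from limma for each of the 34 genes, coloured by role. Of the intervals, 9 lie wholly below 0 and the other 25 include 0, and none reaches below -0.27 or above 0.18.

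The pools were next compared with each other. The mean of log2(normalized count + 1) over the 34 genes, taken relative to its mean over the 6 pools, was 0.037, 0.048 and -0.001 in control and -0.031, -0.008 and -0.045 in mutant pools. Control pool 3 was therefore nearer to mutant pool 2 than to the other controls. Among the controls, pool 2 was the highest in 18 of the 34 genes and pool 3 the lowest in 19. Among the mutants, pool 2 was the highest in 20 and pool 3 the lowest in 18. The coefficient of variation had a median of 3.96% between control pools and 2.24% between mutant pools, and the control SD was the larger in 26 of 34 genes. Over all tested genes the medians were 8.27% and 6.01%, and the control SD was the larger in 10699 of 17168, so the wider control spread was not particular to the 34.

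Control pool 3 bore on the calls more than any other library. Without it, 4 of the 34 genes passed the limma test, all lower in the mutant: *Ccnb1* (log2 fold change -0.20, adjusted p = 0.0217), *Bub1b* (-0.17, adjusted p = 0.024), *Aurka* (-0.18, adjusted p = 0.0405) and *Kif20a* (-0.15, adjusted p = 0.0453). In that fit 1.65% of all tested genes passed as lower, and 464 passed in either direction. Leaving out any other pool called 0 of the 34. The departure of control pool 3 from the mean of control pools 1 and 2 went with gene length: across the 34 genes, which share the library, Pearson's r with log2 summed exon length was 0.46 and Spearman's rho 0.45. The departure had a median of -0.09 (log2) in the 17 genes under 4926 bases of exon and 0.02 in the 17 longer ones. The same was seen over 10796 genes with a control mean of at least 100, with r of 0.28, rho of 0.36, and medians of -0.06 and 0.04. When the length trend was removed from every library, a step added after the data were seen, 0 of the 34 passed and the lowest adjusted p was 0.0663. Other pools gave such relations too, each taken against the other pools of its group. Over the 34 genes r was -0.59 in mutant pool 3, -0.44 in control pool 2 and -0.19 in control pool 1. Over all 10796 genes these values were -0.03, -0.15 and -0.30. Each control pool enters the comparison of the others, so the values of the control pools are not separate relations. Control pool 3 also departed in cell type markers. The mean level over erythroid markers, taken as for the 34 genes above, was 0.062, -0.384 and 0.453 in control pools 1, 2 and 3. For smooth muscle markers it was -0.100, -0.004 and -0.373. Length, sex mix and cell types cannot be told apart in 1 library, and the part of each in the result was not tested further.

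**Figure D3:**
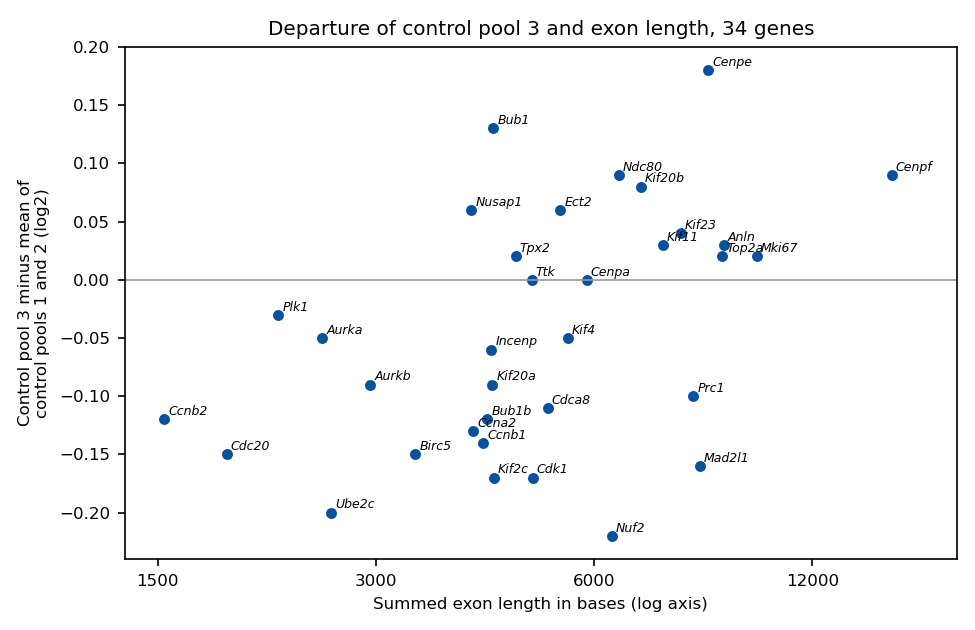
Summed exon length (bases, log axis) against the log2 difference of control pool 3 from the mean of control pools 1 and 2, 1 point for each of the 34 genes. The short genes *Cdc20*, *Ccnb2* and *Ube2c* lie below 0 and the long genes *Cenpf*, *Cenpe* and *Mki67* above it, while *Nuf2*, *Mad2l1* and *Prc1* are long genes below it.

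A wider list of the same program was then described. Among 131 further G2/M and mitosis genes (one of them, *Loh12cr1*, a lysosome gene that entered by mistake), 130 were tested and 0 passed with limma. At an unadjusted p under 0.05, 21 of the 130 (16.2%, against 6.89% of all tested genes) were lower and 0 were higher (against 6.67%), and the median log2 fold change was -0.05. The 3 mutant pools all lay below the controls in 20% of this list, against 10.5% of all tested genes. They all lay above the controls in 4 of the 130, against 9.77% of all tested genes. Without control pool 3, 4 of the 130 passed, where 464 of all 17168 tested genes did. The lowest p was that of *Hjurp*, the chaperone that loads CENPA onto centromeres, at 529, 512 and 589 in control and 427, 414 and 404 in mutant pools. Its groups were well apart, 544 ± 40.5 against 415 ± 11.4 (23.7% lower, log2 fold change -0.39, SE 0.07, limma adjusted p = 0.0594). It passed with DESeq2 (adjusted p = 0.0188), which called 1 gene of this list, and with limma without control pool 3 (log2 fold change -0.33, adjusted p = 0.0297). The centrosome kinase *Nek2* stood at -0.24 (adjusted p = 0.132), *Iqgap3* at -0.19 (0.124, or -0.21 with an adjusted p of 0.0404 without control pool 3) and the checkpoint recruiter *Kntc1* at -0.18 (0.119), all from limma.

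Genes of DNA replication and the G1/S step, which are expressed earlier in the cycle, were the next list. Of 57, 0 passed with limma, edgeR or DESeq2, and 3 passed with limma without control pool 3 (against 464 of all 17168 tested genes). At an unadjusted p under 0.05, 15 (26.3%, against 6.89% of all tested genes) were lower and 2 were higher (against 6.67%). The median log2 fold change was -0.06. *Pola2*, a subunit of DNA polymerase alpha, was at 2030, 1929 and 1960 in control and 1755, 1750 and 1747 in mutant pools (log2 fold change -0.17, limma adjusted p = 0.124). *Pole*, the catalytic subunit of polymerase epsilon, stood at -0.17 (adjusted p = 0.159), the helicase subunit *Mcm7* at -0.18 (0.159, or -0.22 with an adjusted p of 0.0148 without control pool 3) and the ribonucleotide reductase subunit *Rrm2* at -0.15 (0.191). *Mcm2* was at -0.07 and the sliding clamp *Pcna* at -0.02. The level over the 57 genes overlapped between groups, since control pool 3 (-0.033) lay with the mutant pools (-0.026, -0.025 and -0.041) and apart from the other controls (0.040 and 0.086).

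Regulators of the program were tested as a list of 17 DREAM, MuvB and partner genes, of which 0 passed with limma. At an unadjusted p under 0.05, 3 (17.6%, against 6.89% of all tested genes) were lower and 1 was higher (against 6.67%). The median log2 fold change was -0.07. The lists overlap, since *Foxm1* and *Mybl2* are also among the further G2/M genes and *Cdc25a* is in both that list and the replication list, so *Foxm1* and *Cdc25a* each count as lower in both their lists. *Foxm1*, the transcription factor of G2, was at 3704, 3836 and 3809 in control and 3399, 3681 and 3523 in mutant pools (log2 fold change -0.10, SE 0.04, limma adjusted p = 0.346). Its groups did not overlap. *Mybl2*, which encodes B-MYB, stood at -0.06 (adjusted p = 0.633). The NF-Y subunit *Nfya* (-0.13) and *E2f4* (-0.14), a DREAM subunit, both had an adjusted p of 0.192. *Rbl2*, which encodes the pocket protein p130 of DREAM in resting cells, was at 498, 423 and 464 in control and 560, 532 and 530 in mutant pools (log2 fold change 0.23, adjusted p = 0.212).

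Of 15 CDK inhibitors and cell cycle exit genes, 14 were tested, and 0 passed with limma. At an unadjusted p under 0.05, 4 of the 14 were higher (against 6.67% of all tested genes) and 1 (7.14%, against 6.89%) was lower. Without control pool 3, 3 of them passed, where 464 of all 17168 tested genes did. *Cdkn1b*, the inhibitor p27, was at 770, 720 and 799 in control and 959, 889 and 870 in mutant pools (log2 fold change 0.25, SE 0.06, limma adjusted p = 0.132, or 0.032 without control pool 3). *Cdkn1c*, the inhibitor p57, was at 13460, 12983 and 13200 in control and 14430, 14009 and 14245 in mutant pools (log2 fold change 0.11, adjusted p = 0.217). The groups of both genes stood apart. *Ccng1* and *Ccng2*, the atypical cyclins G1 and G2, stood at 0.20 and 0.23 (adjusted p = 0.16 and 0.216), and *Ccng2* passed without control pool 3 (0.31, adjusted p = 0.0169). *Btg2*, an antiproliferative gene, differed the other way at 743, 813 and 695 in control against 589, 524 and 578 in mutant pools (log2 fold change -0.41, limma adjusted p = 0.0512), and passed with DESeq2 (adjusted p = 0.0035) and with limma without control pool 3 (-0.46, adjusted p = 0.00596). *Cdkn1a*, the inhibitor p21, was low throughout with overlapping groups (log2 fold change -0.08, adjusted p = 0.92).

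**Figure D4:**
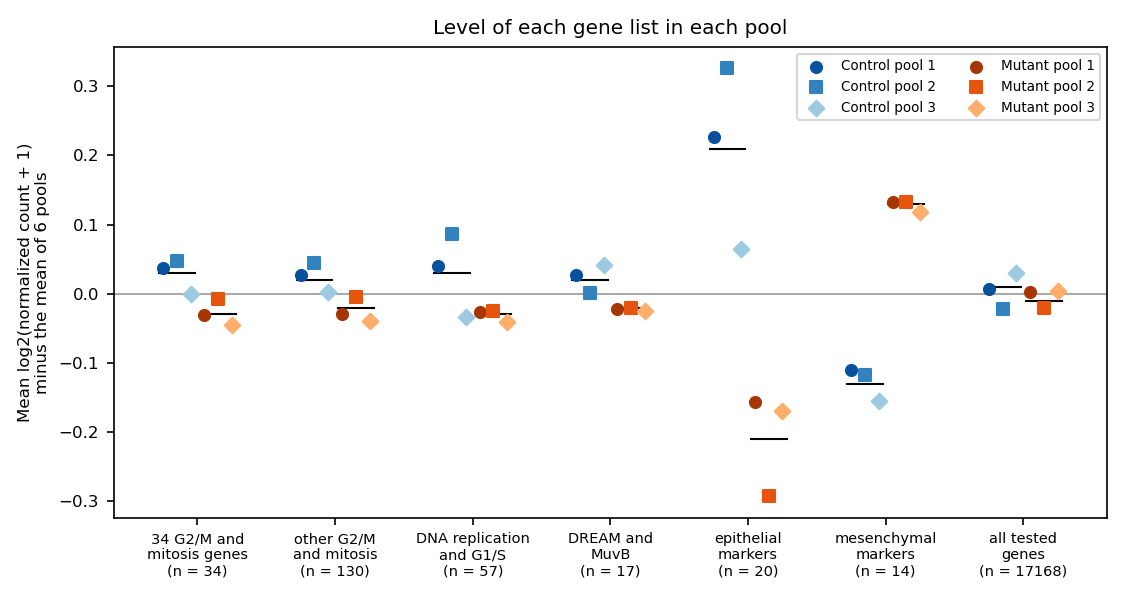
Mean of log2(normalized count + 1) over each gene list in each pool, relative to its mean over the 6 pools, with control pools in blue, mutant pools in orange and a black line at each group mean. The cell cycle lists differ between groups by at most 0.06 on the log2 scale, whereas epithelial markers are lower and mesenchymal markers higher in the mutant pools.

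Epithelial, mesenchymal, smooth muscle and endothelial markers moved with the groups by more than the cell cycle genes did. Of 20 epithelial markers, 19 were lower in the mutant, against 50.5% of all tested genes, with a median log2 fold change of -0.45. With limma 7 of them passed as lower, where 54 of all 17168 tested genes did. Summed counts of the 20 were 18080 to 22305 in control and 14276 to 15412 in mutant pools. *Cdh1*, which encodes E-cadherin, was at 1507, 1522 and 1288 in control and 824, 630 and 753 in mutant pools. Its log2 fold change of -0.97 was the lowest of the 20. *Epcam* (-0.27), *Nkx2-1* (-0.25) and *Shh* (-0.03) overlapped between groups, and *Krt19* was higher in the mutant without overlap (0.44). Of 14 mesenchymal markers, all 14 were higher and 4 passed as higher, where 32 of all 17168 tested genes did. At an unadjusted p under 0.05, 7 of the 14 were higher (against 6.67% of all tested genes). The groups overlapped in others, such as *Foxf1* (log2 fold change 0.03), *Pdgfrb* (0.05), *Pdgfra* (0.09) and *Tbx4* (0.11). Sums of the 14 were 97329 to 103644 against 118505 to 126300. They were made up largely of *Col1a1*, *Col1a2* and *Col3a1* (log2 fold changes 0.49, 0.34 and 0.26). Endothelial sums (13500 to 15264 against 15497 to 16209) and smooth muscle sums (7291 to 9070 against 9655 to 10658) were higher in the mutant too, and cardiac sums were lower (1208 to 1440 against 937 to 1127). Erythroid (98826 to 128565 against 98437 to 122233, with 2 of the 11 markers found in the table, of 12 listed, at 0), macrophage (2415 to 3480 against 3135 to 3287), neural (4537 to 5756 against 5270 to 5885) and mesothelial sums (4793 to 5650 against 5451 to 6080) overlapped. In RNA from whole lungs, fewer cells of a type and less RNA per cell cannot be told apart, and the part of this shift in the values of the mitotic genes was not tested.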

How the data were processed

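RNA-Seq of whole E11.5 lungs was taken as deposited, for 3 control and 3 mutant pools of 3 or 4 lungs. Per the labels, Trim Galore, HISAT2, featureCounts and DESeq2 were among the tools and mm10 was the build; their roles and versions are not given in the sources used here. The paper names the BGISEQ-500 platform and RStudio with R, and the labels a standard library preparation. The deposited signal values are normalized counts that the authors made by dividing reads by a size factor. Deposited columns with p-values, a score (the test statistic), log2 fold changes and their errors hold the authors' own comparison and were not used. Symbols of 27 genes had become dates in the table and were left so.

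A single step per library divided 100% of its values into whole numbers in all 6 libraries (tolerance 0.01), giving 20197642 to 21276090 reads. Normalized totals were 20705058 to 20865998. PCR duplicates cannot be told from separate molecules, so counting errors cover counting alone.

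Values were compared as log2(normalized count + 1) with limma 3.58.1 in R 4.3.3 (eBayes with a trend), two-sided, for the 17168 genes that reached 1 in 3 or more libraries. P-values were adjusted by Benjamini-Hochberg, the threshold was 0.05, and no block was used. Fold changes on this scale understate changes of low genes. edgeR 4.0.16 (quasi-likelihood, TMM) and DESeq2 1.42.0 on the recovered reads called 79 and 279 genes. Both were tried as alternatives. The main limma fit, edgeR and DESeq2 were tried on simulated data, and the other alternatives and tests were not. The paper's statistics section names Student's tests without adjustment for its comparisons in general, and its RNA-Seq section names no test. The authors' deposited RNA-Seq comparison holds adjusted p-values. Here limma was used because the values are normalized. Other alternatives were no trend, upper-quartile scaling (75th percentile), other filters (10 in every library, or none), 0.1 as pseudocount, the replicate number as a block, each pool left out and, after the data were seen, removal of a trend on exon length.

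Coordinates and summed exon lengths come from GENCODE M21 (GRCm38), promoters from RefSeq. The members and lists were chosen with earlier results of these data known, the alternatives and the rule for named genes included. Pool values are given for the 12 genes of lowest p and for 8 well-known ones (*Cdk1*, *Ccnb1*, *Plk1*, *Aurkb*, *Birc5*, *Cdc20*, *Top2a* and *Mki67*), and of each further list the 4 lowest p and 7 set genes (*Foxm1*, *Mybl2*, *Cdkn1a*, *Cdkn1b*, *Cdkn1c*, *Pcna* and *Mcm2*) are named. Samples of a later stage were not analysed here.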

Additional observations from a re-analysis of the deposited data

How the results depend on the processing

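Of 510 values for the 34 genes under 15 alternatives, 486 kept their sign and their side of the threshold, 20 changed sign and 4 newly passed it (the 4 genes without control pool 3). The sign was kept under every alternative in 24 of the 34 genes. With 1 pool left out, 0 to 4 of the 34 passed, 2 to 15 were lower at an unadjusted p under 0.05, their median was -0.08 to -0.03, and 1 to 464 of all genes passed. In the same fits, 0 to 4 of the other G2/M genes, 0 to 3 of the DNA replication genes and 0 to 3 of the CDK inhibitors and exit genes passed, and the median of the DREAM and MuvB list was -0.07 to -0.04. Of all genes, 1 passed without control pool 1, 167 without control pool 2, 464 without control pool 3, 12 without mutant pool 1, 18 without mutant pool 2 and 1 without mutant pool 3; the number of the 34 lower at an unadjusted p under 0.05 was 15 without control pool 3, 4 without mutant pool 1 and 2 without mutant pool 3. The causes were not tested. limma without the trend called 8 genes and left 2 of the 34 lower at an unadjusted p under 0.05. DESeq2 called 279 genes and removal of the exon length trend 134, each with 1 other G2/M gene and 1 CDK inhibitor or exit gene, and upper-quartile scaling called 1 of the latter.

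The log2 fold change crossed 0 with a pool left out for genes near 0: *Ccnb2* (-0.01 to 0.07), *Cdk1* (-0.03 to 0.07), *Plk1* (-0.05 to 0.02), *Cenpa* (-0.03 to 0.02), *Cenpe* (-0.07 to 0.03), *Kif11* (-0.02 to 0.0072), *Kif4* (-0.03 to 0.0023), *Birc5* (-0.05 to 0.06), *Ndc80* (-0.008 to 0.05), *Nuf2* (-0.12 to 0.02), *Cdkn1a* (-0.31 to 0.12) and *Pcna* (-0.10 to 0.04). With the length trend removed it changed sign in *Ccnb2* (-0.0078), *Cenpa* (0.0019), *Kif11* (0.01) and *Birc5* (-0.0055).

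The replicate numbers are shared by control and mutant pools, but same-numbered pools correlated at -0.019, 0.101 and 0.031 in their deviations from the group means, so the numbers were not taken as pairs. With the replicate block, 71 genes and 0 of the 34 passed, 7 of the 34 were lower at an unadjusted p under 0.05, and the lowest adjusted p was 0.174. The lowest number of reads of the 34 genes in a pool was 727, where counting alone gives a coefficient of variation of 3.71%. Counting error is smaller for genes with more reads, and the median level of the 34 was 2726. It is therefore part of the spread between pools (median over the genes 3.96% in control and 2.24% in mutant), but 3.71% is not its size for most of the genes.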

Other observations

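The subunits of the MCM2-7 helicase, which opens DNA at replication origins, did not lie on one side, an observation made after the values were seen. *Mcm7* was at 7360, 7872 and 6958 in control and 6799, 6449 and 6335 in mutant pools (log2 fold change -0.18, SE 0.05, limma adjusted p = 0.159). *Mcm6* was the other way, at 6989, 7128 and 6805 in control and 7655, 7380 and 7433 in mutant pools (log2 fold change 0.10, SE 0.04, limma adjusted p = 0.254). Neither gene overlapped between groups. The remaining subunits were at -0.11 (*Mcm3*), -0.10 (*Mcm5*), -0.07 (*Mcm2*) and -0.03 (*Mcm4*), and no subunit passed the adjusted threshold with all 6 pools (*Mcm7* did without control pool 3, adjusted p = 0.0148).

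Pairs of related genes among the 34, also picked after their values were seen, were compared as ratios within each pool, which leave out any factor common to both genes. The ratio of *Ccnb1* to *Ccnb2* was 1.91, 1.88 and 1.87 in control and 1.61, 1.71 and 1.66 in mutant pools. Control pools were nearly level, control pool 3 included, and all lay above the mutant pools, with log2 ratios of 0.92 ± 0.01 and 0.73 ± 0.05 (SD, n = 3 each). The two-sided exact permutation test gave p = 0.1, the smallest that 3 pools against 3 allow, and 0.2 after Benjamini-Hochberg adjustment over 4 pairs. With this floor the test could not reach 0.05. *Ccnb1* and *Aurka* were already known not to overlap between groups, and the adjustment does not cover this choice of pairs. The ratio of *Aurka* to *Aurkb* was 0.95, 0.99 and 0.99 in control and 0.94, 0.86 and 0.91 in mutant pools (exact p = 0.1, adjusted 0.2). The ratios of *Bub1b* to *Bub1* and of *Kif20a* to *Kif20b* overlapped between groups (exact p = 0.7 for each).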
